A study of Rattus norvegicus with 8 samples.

Results

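Of the genes that rat cells name Zfp with a number, 245 were expressed along the route that leads from embryonic stem cells to germ cell-like cells. They were chosen from the deposited expression table by symbol and level: each had a level of at least 1 TPM (a transcript's reads per unit of its length, scaled to the same total in every library) in at least 2 of the 8 libraries, and Zfp42 and Zfp57 were left out by name. Of 270 such rows, 2 were left out by name and 23 stayed under the level, 2 of them at 0 in every library. The 245 members stand among 13571 genes that passed the same filter, out of 22228 named rows. The name is a historical one: most members encode C2H2 zinc finger proteins, whose fingers read DNA, while a few encode CCCH or other zinc-binding proteins. Many C2H2 members carry a KRAB domain, which recruits TRIM28 and through it SETDB1, a histone H3 lysine 9 methyltransferase, and these proteins silence transposable elements and keep imprinted genes methylated in early embryos and germ cells. The family evolves fast, and many members have no counterpart outside rodents.

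The study grew Crlj:WI rat cells, labelled wild type, through 4 states with 2 libraries each. ESC were embryonic stem cells kept on mouse embryonic fibroblast feeders in N2B27 with the MEK inhibitor PD0325901 at 1 µM, the GSK3 inhibitor CHIR99021 at 3 µM and rat LIF. EpiLC were epiblast-like aggregates made from ESC with activin A, bFGF and KSR over 60 hours. PGCLC_d3 were primordial germ cell-like cells made from EpiLC aggregates with BMP4, rat LIF, SCF and EGF. They were sorted at day 3 for a tdTomato reporter of Nanos3. PGCLC_d3ag3 were such sorted cells after 3 further days in aggregates with somatic cells of female rat gonads (E15.5). Medium with 5% KSR was used for these aggregates, and the somatic cells were depleted of the c-KIT-positive germ cells of the gonad. The PGCLC were then sorted again for the same reporter. The PGCLC groups were thus sorted and the others were not, so state, medium and sorting cannot be told apart. Whether the 2 libraries of a group are separate cultures is not said in the labels, so the p-values speak only of the spread between these libraries, and that spread may be technical. In bulk RNA, fewer cells of a type and less RNA per cell cannot be told apart.

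Summed levels of the listed ESC, EpiLC and PGCLC markers followed the labels, though not every single marker did. Dnmt3b, with 2670 and 2890 TPM in EpiLC, made up most of the EpiLC sum, and the listed EpiLC marker Fgf5 had 0.0747 and 0 TPM there. The 5 ESC markers summed to 1450.4 to 1465 TPM in ESC and to 10.3 to 195 TPM elsewhere, the 5 EpiLC markers to 3147 to 3384 TPM in EpiLC and to 38.9 to 170.1 TPM elsewhere, and the 6 PGCLC markers to 929.9 to 1431 TPM in the PGCLC groups and to 33.0 to 116 TPM in the others. The 4 later germ cell markers reached 1057 to 1092 TPM in PGCLC_d3ag3, against 2.87 to 3.35 TPM in PGCLC_d3, but also 163 to 194 TPM in EpiLC and 55.8 to 63.5 TPM in ESC, led by Ddx4 with 162 and 134 TPM in EpiLC. Of 8 gonadal somatic markers, 4 reached 1 TPM in both PGCLC_d3ag3 libraries and their sum was 13.9 to 19.1 TPM there, against 8.18 to 9.53 TPM in PGCLC_d3, 17.1 to 18.0 TPM in EpiLC and 3.95 to 4.90 TPM in ESC. Of 8 fibroblast and feeder markers, 4, 5, 1 and 2 reached 1 TPM in both libraries of ESC, EpiLC, PGCLC_d3 and PGCLC_d3ag3, with sums of 23.9 to 29.3, 43.9 to 82.6, 3.71 to 7.02 and 12.0 to 15.3 TPM. Thy1 was listed at 0 in ESC, Dcn and Lum in PGCLC_d3 and Lum in PGCLC_d3ag3. The part of such cells in the results below was not tested.

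The members were mostly low and widely expressed. Averaged over the 8 libraries, the middle member stood at 8.93 TPM, the quartiles at 3.72 and 17.5 TPM and the highest, Zfp207, at 249.9 TPM, and 3 members averaged at least 100 TPM. The median member had 6.67 to 9.67 TPM in a library, against 13.8 to 18.2 TPM for all genes tested. Together the members summed to 3859 to 4232 TPM, a nearly constant total across the 4 states. Of the 245, 200 were at or above 1 TPM in all 8 libraries. PGCLC_d3 held the most members at that level, 243 in each library, against 218 and 223 in ESC, 228 and 230 in EpiLC, and 223 and 221 in PGCLC_d3ag3. All genes tested were also most numerous at that level in PGCLC_d3, with 12159 and 12168, against 11325 to 11818 in the other libraries. The members that barely entered were Zfp579 and Zfp711, whose second highest library had 1.28 TPM. The nearest left out were Zfp78, with 1.06 and 0.953 TPM in its 2 highest libraries, and Zfp42l, with 0.903 and 0.897 TPM.

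Each pair of groups was compared with limma on the deposited log2(TPM + 1) values, fitted over all 13571 genes and all 8 libraries, and a gene was called at a Benjamini-Hochberg adjusted p under 0.05. Log2 differences below are on this scale, which understates the change of low genes. In EpiLC against ESC, 94 members (38.4%) were higher and 61 (24.9%) lower, where 35.4% and 31.8% of all genes tested were. In PGCLC_d3 against EpiLC, 118 members (48.2%) were higher and 51 (20.8%) lower, where 47.3% and 27.6% of all genes were. In PGCLC_d3ag3 against PGCLC_d3, 38 of 245 members were higher and 110 (44.9%) lower, where 25.7% and 44.8% of all genes were. As a class the members thus rose at rates near those of the whole transcriptome at the first 2 steps and fell at a rate near it at the last. The share of falls lay below that of all genes at the first 2 steps and the share of rises below it at the last, as deposited. Changes of at least 1 on the log2 scale were counted as well. For EpiLC against ESC they were called upward for 29 members and downward for 15 (12.5% and 10.8% of all genes). For PGCLC_d3 against EpiLC they were called upward for 41 and downward for 18 (18.7% and 10.8%). For PGCLC_d3ag3 against PGCLC_d3 they were called upward for 5 members (2.04%, against 6.55% of all genes). Downward changes of this size were called there for 32 members (13.1%) and for 2099 of all 13571 genes. Both directions together made up 15.1% of members at that step, against 22% of all genes. Over the longer intervals, PGCLC_d3 stood higher than ESC for 130 members and lower for 50 (49.6% and 27.4% of all genes), PGCLC_d3ag3 higher than ESC for 106 and lower for 71 (42.5% and 34.8%), and PGCLC_d3ag3 higher than EpiLC for 89 and lower for 89 (41% and 36.7%). A rise in PGCLC_d3 against EpiLC followed by a fall in PGCLC_d3ag3 against PGCLC_d3 was called for 58 members (23.7%, against 25.3% of all genes). Only 8 members passed the test in none of the 6 pairwise comparisons (3.27%, against 2.04% of all genes), 33 passed it in all 6 (13.5%, against 19.3%), and 137 changed by at least 1 on the log2 scale in at least one of them (55.9%, against 62.4%).

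The direction of these totals depended on how libraries were scaled. The median difference of all genes was 0.21 for PGCLC_d3 against EpiLC and -0.18 for PGCLC_d3ag3 against PGCLC_d3, and that of the members was 0.28 and -0.23. After median-of-ratios rescaling, which brings the all-gene medians to -0.0156 and -0.00406, the counts of members higher and lower were 86 and 73 at the step into PGCLC_d3 (36.3% and 37.5% of all genes) and 68 and 90 at the step into PGCLC_d3ag3 (35.2% and 35.2%). After quantile normalization they were 76 and 90 (37.7% and 36.5% of all genes), then 91 and 78 (34.6% and 34.8%), so that the larger direction turned round at both steps. The share of falls at the step into PGCLC_d3 was then 36.7% of members, against 36.5% of all genes, and the share of rises at the last step 37.1%, against 34.6%, so that neither lay below that of all genes. The share of rises among called members moved at the last step to 43.0% and 53.8% under these scalings, against 25.7% as deposited. At the first step the members higher outnumbered those lower under each scaling. After median-of-ratios rescaling the counts were 92 and 66 (33.7% and 34.1% of all genes), and after quantile normalization 86 and 62 (34.7% and 33.3%). The same comparisons over the 200 members that were present in every library gave, as deposited, 73 higher and 51 lower in EpiLC against ESC (33.8% and 34% of the 9811 genes present in every library), 92 and 45 in PGCLC_d3 against EpiLC (49.1% and 26.2%), and 32 and 81 in PGCLC_d3ag3 against PGCLC_d3 (26.1% and 44.3%).

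**Figure D1:**
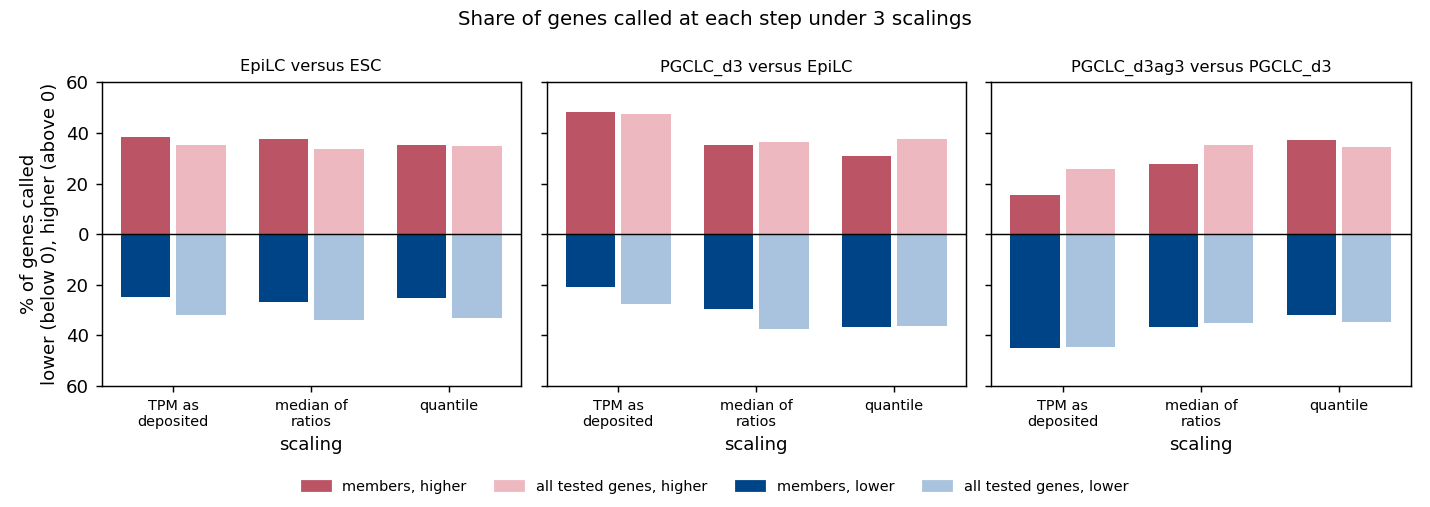
Share of the 245 members (dark bars) and of all 13571 genes tested (light bars) called higher (above 0) or lower (below 0), in percent, at each of the 3 steps under the deposited scale and under 2 other scalings of the libraries. At the step into PGCLC_d3 48.2% of members were higher and 20.8% lower as deposited, and after quantile normalization the lower members outnumbered the higher ones, 90 to 76.

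Members with large changes in single states were counted next. A member was counted as highest or lowest in a group when all 3 comparisons with the other groups were called and at least 1 on the log2 scale. ESC was highest for 6 members (2.45%, against 5.1% of all genes) and lowest for 8 (3.27%, against 4.16%). EpiLC was highest for 7 (2.86%, against 3.89%) and lowest for 6 (2.45%, against 2.71%). PGCLC_d3 was highest for 5 (2.04%, against 5%), and PGCLC_d3ag3 highest for 3 (1.22%, against 3.26%) and lowest for 8 (3.27%, against 3.19%). No member was lowest in PGCLC_d3 with limma, at an adjusted or at an unadjusted p under 0.05 (0 in both), where 1.29% of all genes were. A further set of patterns, chosen after the values were seen, took members high in 2 groups over both others. Of these, 14 were high in PGCLC_d3 and PGCLC_d3ag3 (5.71%, against 5.81% of all genes), 9 in EpiLC and PGCLC_d3 (3.67%, against 2.39%) and 4 in ESC and EpiLC (1.63%, against 3.4%). A single member was high in ESC and PGCLC_d3ag3 (0.408%, against 0.575%), and 1 in EpiLC and PGCLC_d3ag3 (0.408%, against 0.332%). High in ESC and PGCLC_d3 described none with limma, at an adjusted or at an unadjusted p under 0.05 (0 in both), where 0.582% of all genes were. The unadjusted p kept the margin of 1 on the log2 scale and left the count of every pattern as it was, so it adds no separate check. Some members passed the filter only through the group where they were high, Zfp36l3 and Zfp385b among them, so these counts are descriptions. Among the 200 members present in every library, 2 were highest in PGCLC_d3 (1%, against 2.46% of all genes present in every library). With limma at an adjusted p under 0.05, none of the 200 was highest in PGCLC_d3ag3 (against 1.66%). In the same set 9 were high in both PGCLC groups (4.5%, against 4.33%) and 6 in EpiLC and PGCLC_d3 (3%, against 1.38%). In all, 58 members had at least one such pattern. The share of all genes with at least one was not counted, so 58 is a description and not a trait of the members. Of the 72 pairings of a member with a pattern, 51 held under both other scalings. All 6 members highest in ESC and all 7 highest in EpiLC were among these 51, and 2 of the 5 highest in PGCLC_d3.

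**Figure D2:**
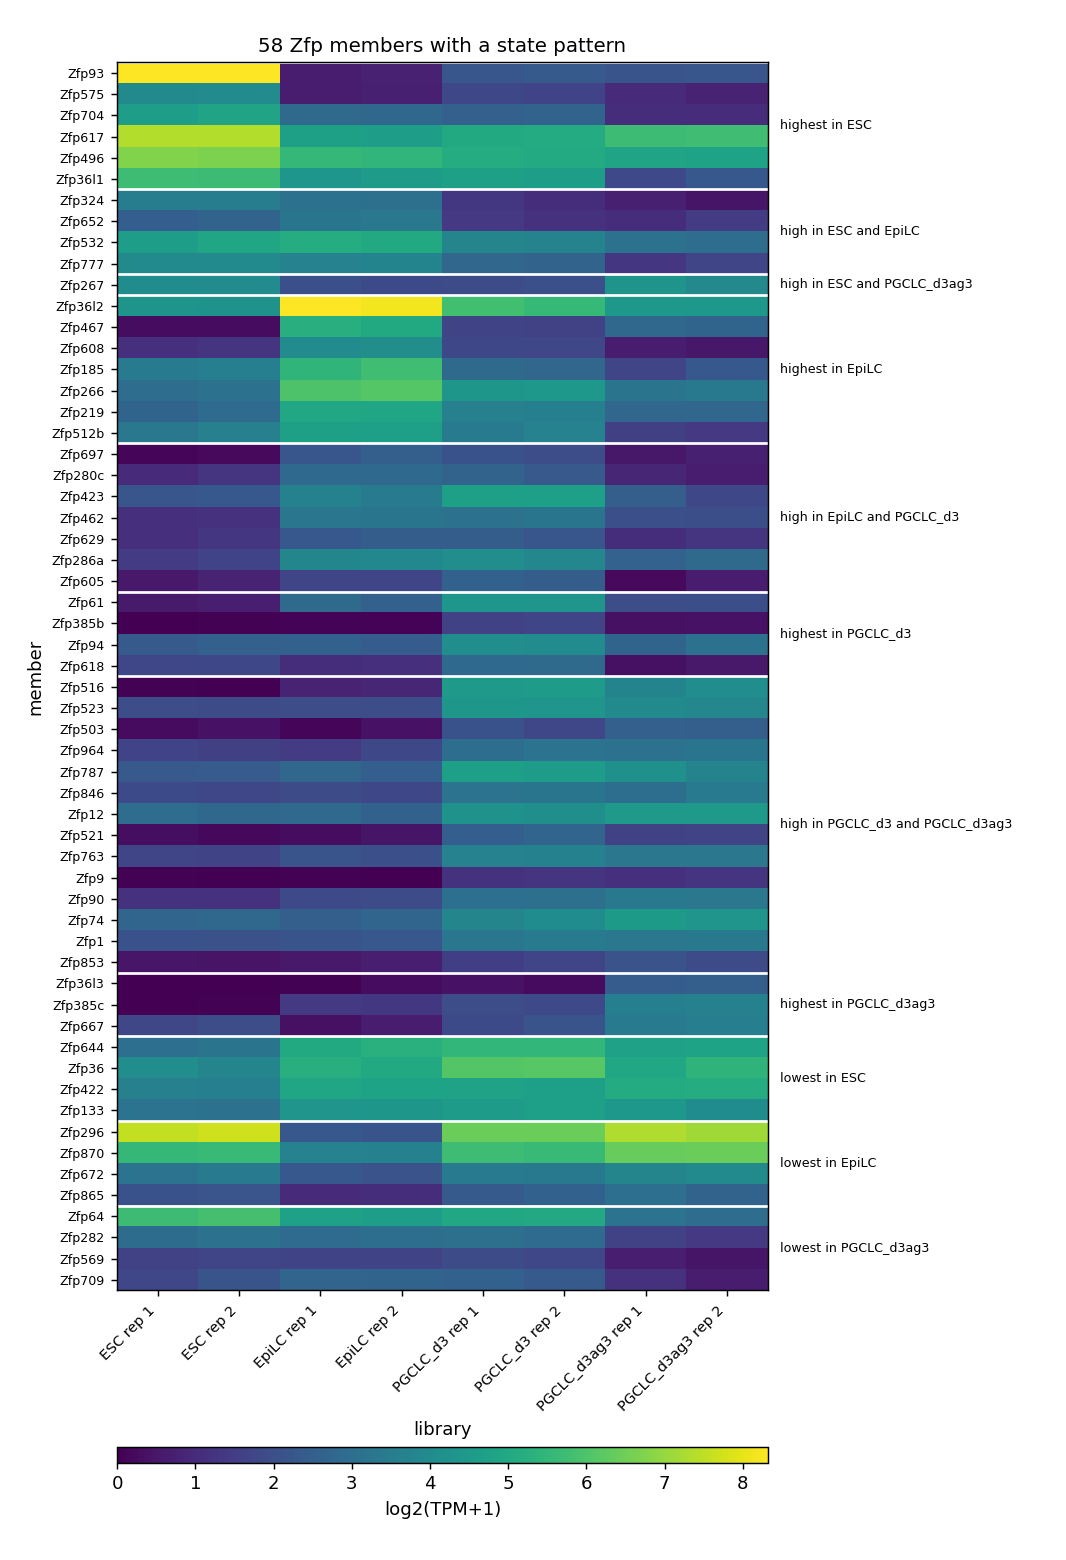
Level of the 58 members with a pattern (rows, each shown once, under 1 of its patterns) in the 8 libraries (columns), as log2(TPM + 1) by colour from 0 (dark) upward. Zfp93 is bright in the ESC libraries alone, Zfp36l2 brightest in EpiLC, and Zfp296 dark in EpiLC and bright elsewhere.

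Zfp93 was the member that marked ESC. It had 313 and 318 TPM in ESC, 0.589 and 0.686 TPM in EpiLC, 3.64 and 4.16 TPM in PGCLC_d3 and 3.42 and 3.65 TPM in PGCLC_d3ag3. It was the highest member in both ESC libraries, and in EpiLC it was under 1 TPM. The log2 difference of EpiLC against ESC was -7.59 (SE 0.11, limma adjusted p = 6.9e-11), the widest fall of any member at that step, and PGCLC_d3 stood above EpiLC by 1.58 (SE 0.11, adjusted p = 7.1e-07). Zfp617 was also highest in ESC, with 162 TPM in both ESC libraries, 25.3 and 24.3 TPM in EpiLC, 31.9 and 33.4 TPM in PGCLC_d3 and 50.9 and 53.7 TPM in PGCLC_d3ag3. Its groups did not overlap, and it was lower in EpiLC than in ESC by a log2 difference of -2.66 (SE 0.06, adjusted p = 7.7e-10).

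Zfp575, Zfp704, Zfp496 and Zfp36l1 completed the set that was highest in ESC. Zfp575 had 14.8 and 15.1 TPM in ESC and at most 2.46 TPM in any other library. Zfp704 had 23.8 and 28.2 TPM in ESC, 6.27 and 5.90 TPM in EpiLC, 4.91 and 5.31 TPM in PGCLC_d3 and 1.14 and 1.09 TPM in PGCLC_d3ag3, where it was also lowest. Zfp496, which encodes a partner of the histone methyltransferase NSD1, had 106 and 100.3 TPM in ESC, 46.0 and 43.5 TPM in EpiLC, 34.5 and 32.9 TPM in PGCLC_d3 and 28.0 and 27.6 TPM in PGCLC_d3ag3, so that each state stood below the one before it, although neither rescaling kept the last of these falls past the test. EpiLC was lower than ESC by a log2 difference of -3.30 for Zfp575 (limma adjusted p = 1.3e-08), -1.93 for Zfp704 (5.6e-07) and -1.19 for Zfp496 (2.3e-07). Feeder cells were part of the ESC culture, and their part in these levels was not tested.

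Zfp296 was low in EpiLC and abundant in the other states. It encodes a zinc finger protein that aids reprogramming to pluripotency and is needed for germ cell development in mouse. It had 188 and 209 TPM in ESC, 3.93 and 3.44 TPM in EpiLC, 86.2 and 86.7 TPM in PGCLC_d3 and 158 and 141 TPM in PGCLC_d3ag3. The groups did not overlap, with EpiLC far below and PGCLC_d3ag3 between PGCLC_d3 and ESC. The log2 differences were -5.41 for EpiLC against ESC (SE 0.08, limma adjusted p = 8.7e-11), 4.22 for PGCLC_d3 against EpiLC (SE 0.08, adjusted p = 3.1e-10) and 0.78 for PGCLC_d3ag3 against PGCLC_d3 (SE 0.08, adjusted p = 2.5e-05). Zfp870 followed a like course at lower level, with 45 and 48.8, 11.8 and 11.5, 52.3 and 49.0, and 81.9 and 86.5 TPM in ESC, EpiLC, PGCLC_d3 and PGCLC_d3ag3. Its fall in EpiLC against ESC was -1.92 (SE 0.07, adjusted p = 1.5e-08) and its rise in PGCLC_d3 against EpiLC was 2.02 (SE 0.07, adjusted p = 9.9e-09). The annotation lists Zfp709l2 as another name of Zfp870, so reads of near-identical Zfp709-like genes may have been split between rows. Zfp672 was lowest in EpiLC as well, with 3.86 and 3.36 TPM there and 8.0 to 14.8 TPM in the other libraries, but neither rescaling kept that pattern, nor did leaving out the second ESC library.

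**Figure D3:**
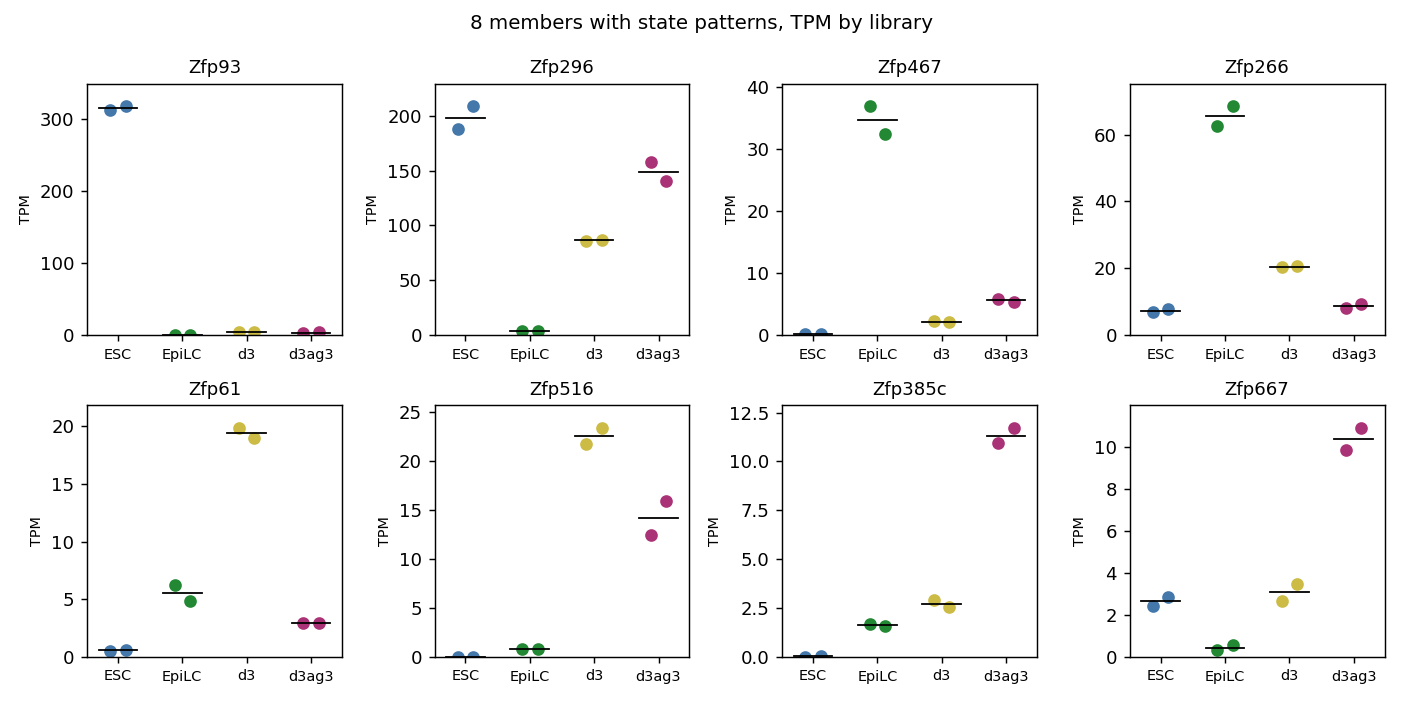
TPM of 8 members with state patterns in each library (points) with the group mean (line), each panel on its own axis from 0, groups in the order ESC, EpiLC, PGCLC_d3 (d3) and PGCLC_d3ag3 (d3ag3). Zfp93 is near 315 TPM in ESC and under 5 TPM in every other library, while Zfp296 is under 4 TPM only in EpiLC.

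EpiLC had its own set, led by Zfp467 and Zfp36l2. Zfp467, which favours the adipocyte over the osteoblast fate in mouse, had 0.223 and 0.210 TPM in ESC, 36.9 and 32.4 TPM in EpiLC, 2.23 and 2.04 TPM in PGCLC_d3 and 5.88 and 5.40 TPM in PGCLC_d3ag3. It was both highest in EpiLC and lowest in ESC, and no 2 groups overlapped, although it was no longer lowest in ESC by the margin set under quantile normalization. EpiLC was above ESC by 4.87 on the log2 scale (SE 0.13, limma adjusted p = 1e-09), the widest rise of a member at that step, PGCLC_d3 below EpiLC by -3.50 (SE 0.13, adjusted p = 8.1e-09) and PGCLC_d3ag3 above PGCLC_d3 by 1.08 (SE 0.13, adjusted p = 3.8e-05). Zfp266, a KRAB protein whose loss eases reprogramming of mouse fibroblasts, had 6.80 and 7.78 TPM in ESC, 62.4 and 68.4 TPM in EpiLC, 20.3 and 20.8 TPM in PGCLC_d3 and 8.15 and 9.27 TPM in PGCLC_d3ag3. Its log2 difference was 3.00 for EpiLC against ESC (SE 0.10, adjusted p = 6.9e-09) and -1.62 for PGCLC_d3 against EpiLC (SE 0.10, adjusted p = 4.1e-07).

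Zfp608, Zfp185 and Zfp219 rose in EpiLC too. Zfp608 had 15.1 and 16.1 TPM in EpiLC, against 1.24 and 1.41 TPM in ESC, and 2.53 and 2.43 TPM in PGCLC_d3. Zfp185, which encodes a LIM-domain protein of the actin cytoskeleton and not a C2H2 factor, had 42.7 and 53.8 TPM in EpiLC, against 9.52 and 11 TPM in ESC, and 6.39 and 5.70 TPM in PGCLC_d3. Zfp219, named after its values were seen, had 30 and 29.6 TPM in EpiLC, against 5.44 and 6.53 TPM in ESC. EpiLC exceeded ESC by a log2 difference of 2.84 for Zfp608 (limma adjusted p = 3e-08), 2.12 for Zfp185 (4.6e-06) and 2.14 for Zfp219 (1.1e-07), and the EpiLC and ESC libraries did not overlap for any of them.

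Promoter windows of 3 members with wide contrasts follow. The windows shown run from 250 bases before to 50 bases after the annotated start of transcription and were taken from RefSeq on GRCr8, a later rat assembly than the rn7 build behind the deposited values. They are shown because Zfp296, Zfp467 and Zfp36l2 had wide and unlike courses, and the capitals mark CG dinucleotides, the sites of DNA methylation. Zfp296 lies at chr1:88356403-88356702 on the plus strand, Zfp467 at chr4:78723086-78723385 on the minus strand and Zfp36l2 at chr6:16242372-16242671 on the plus strand.
Zfp296: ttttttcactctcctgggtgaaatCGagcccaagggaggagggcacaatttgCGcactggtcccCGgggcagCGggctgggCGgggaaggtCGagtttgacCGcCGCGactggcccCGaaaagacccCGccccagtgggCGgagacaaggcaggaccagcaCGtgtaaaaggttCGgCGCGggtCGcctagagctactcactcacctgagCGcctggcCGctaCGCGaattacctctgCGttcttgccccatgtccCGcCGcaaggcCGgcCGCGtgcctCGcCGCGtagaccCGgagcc
Zfp467: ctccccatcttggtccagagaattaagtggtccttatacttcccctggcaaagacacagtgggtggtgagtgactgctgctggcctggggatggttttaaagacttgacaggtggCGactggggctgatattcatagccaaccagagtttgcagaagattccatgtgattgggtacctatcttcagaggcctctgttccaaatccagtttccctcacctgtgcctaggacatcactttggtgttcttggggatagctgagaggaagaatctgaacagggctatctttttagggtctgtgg
Zfp36l2: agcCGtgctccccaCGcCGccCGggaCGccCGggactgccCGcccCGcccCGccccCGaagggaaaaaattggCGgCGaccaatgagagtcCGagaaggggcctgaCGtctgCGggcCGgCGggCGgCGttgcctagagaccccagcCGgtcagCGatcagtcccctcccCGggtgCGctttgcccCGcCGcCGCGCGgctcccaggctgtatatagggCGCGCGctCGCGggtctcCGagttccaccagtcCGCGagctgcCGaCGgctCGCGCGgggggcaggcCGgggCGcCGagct
The window of Zfp467 held 1 CG, that of Zfp296 31 and that of Zfp36l2 44. Windows could be found for 202 of the 245 members, and the one with the most CG was used where a gene had several starts. The median member had 18 CG (quartiles 10 and 24), against 21 (quartiles 13 and 29) over the 10272 genes tested that had a window. At least 10 CG were present in 81.7% of members and 83.6% of genes tested. Among the 45 members with both a pattern and a window, 73.3% had at least 10 CG, against 84.1% of the 157 without a pattern. No methylation was measured, so these counts describe sequence only.

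**Figure D4:**
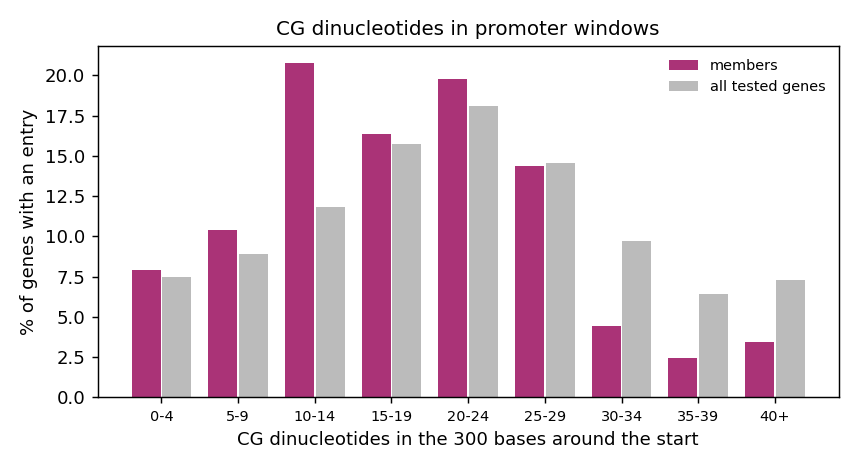
Share of genes (vertical axis, percent) by the number of CG dinucleotides in the promoter window (horizontal axis), for 202 members and for 10272 genes tested. Members are more frequent between 10 and 14 CG and less frequent at 30 or more.

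PGCLC_d3 was highest for Zfp61, Zfp423, Zfp94, Zfp618 and the low member Zfp385b. Zfp61 had 0.505 and 0.628 TPM in ESC, 6.26 and 4.86 TPM in EpiLC, 19.8 and 19.0 TPM in PGCLC_d3 and 2.91 and 2.98 TPM in PGCLC_d3ag3. It rose by 1.65 in PGCLC_d3 against EpiLC (SE 0.14, limma adjusted p = 2.6e-06) and fell in PGCLC_d3ag3 against PGCLC_d3 by a log2 difference of -2.37 (SE 0.14, adjusted p = 4.4e-07), and it kept this pattern under each alternative tried. Its neighbour in the gene order, Zfp94, had 4.15 and 4.82 TPM in ESC, 5.03 and 4.32 TPM in EpiLC, 15.7 and 15.1 TPM in PGCLC_d3 and 5.40 and 7.60 TPM in PGCLC_d3ag3. Its rise in PGCLC_d3 against EpiLC was 1.53 (SE 0.16, adjusted p = 1.1e-05), but under both rescalings, or without the first PGCLC_d3ag3 library, Zfp94 was no longer highest in PGCLC_d3 by the margin set.

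The windows of this neighbouring pair are shown because both genes were highest in PGCLC_d3. The capitals mark TTCTGGGAA, letters that lie within the longer element known to be bound by human ZNF143 and ZNF76, whose rat counterparts Zfp143 and Zfp523 are members themselves. The motif was chosen after the windows were read, and both strands were searched for TTCTGGGAA and its reverse complement TTCCCAGAA. Zfp61 lies at chr1:88985610-88985909 on the minus strand and Zfp94 at chr1:89007466-89007765 on the minus strand (GRCr8).
Zfp61: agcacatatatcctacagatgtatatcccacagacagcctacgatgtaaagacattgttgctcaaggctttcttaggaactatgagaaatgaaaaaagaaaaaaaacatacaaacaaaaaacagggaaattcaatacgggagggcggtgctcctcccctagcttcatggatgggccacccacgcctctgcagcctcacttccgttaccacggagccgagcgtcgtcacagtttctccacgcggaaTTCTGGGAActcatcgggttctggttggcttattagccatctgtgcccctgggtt
Zfp94: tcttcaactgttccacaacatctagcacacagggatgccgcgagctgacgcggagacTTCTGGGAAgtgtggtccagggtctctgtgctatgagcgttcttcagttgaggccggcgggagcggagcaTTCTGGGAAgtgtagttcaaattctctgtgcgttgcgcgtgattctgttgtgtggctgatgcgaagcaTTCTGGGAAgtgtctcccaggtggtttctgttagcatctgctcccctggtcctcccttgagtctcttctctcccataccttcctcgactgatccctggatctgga
The window of Zfp61 held 1 copy and that of Zfp94 3 copies. Over all windows, 11 of 202 members held the motif (5.45%), and 9 of 200 (4.5%) without these 2, against 138 of the 10272 genes tested (1.34%). The other members with it were Zfp12, Zfp84, Zfp112, Zfp180, Zfp184, Zfp428, Zfp473, Zfp566 and Zfp879, and of these Zfp12 alone had a pattern. Neighbouring zinc finger genes often arise by duplication, so their windows are not independent, and a match is a description of letters.

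Zfp143 itself was among the steadiest members and Zfp523 was not. Zfp143 had 39.3 and 40.6 TPM in ESC, 30.4 and 31.7 TPM in EpiLC, 38.8 and 37.4 TPM in PGCLC_d3 and 39.4 and 40.4 TPM in PGCLC_d3ag3. Zfp523 had 2.87 and 2.74 TPM in ESC, 2.93 and 2.94 TPM in EpiLC, 20.3 and 19.2 TPM in PGCLC_d3 and 14.9 and 13.4 TPM in PGCLC_d3ag3. Both PGCLC groups stood clear of both earlier states for Zfp523, with a log2 difference of 2.40 for PGCLC_d3 against EpiLC (SE 0.11, limma adjusted p = 5.3e-08).

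Zfp523 was one of the 14 members high in both PGCLC groups. The widest of these was Zfp516, which promotes brown fat in mouse, with 0.0274 and 0.0105 TPM in ESC, 0.788 and 0.843 TPM in EpiLC, 21.7 and 23.3 TPM in PGCLC_d3 and 12.4 and 15.9 TPM in PGCLC_d3ag3. PGCLC_d3 exceeded EpiLC by 3.69 (SE 0.14), and PGCLC_d3ag3 was lower than PGCLC_d3 by a log2 difference of -0.64 (SE 0.14, limma adjusted p = 0.0024). Zfp516 reached 1 TPM only in the 4 PGCLC libraries, as did Zfp503, Zfp521, Zfp9 and Zfp853 of this set. These genes thus passed the filter through the PGCLC groups, and the direction of their rise was fixed by it. Zfp503, needed for striatal development in mouse, had 3.31 and 2.41 TPM in PGCLC_d3 and 4.91 and 4.74 TPM in PGCLC_d3ag3, against at most 0.335 TPM in any ESC or EpiLC library. Zfp521, a cofactor of EBF factors, had 4.55 and 5.56 TPM in PGCLC_d3 and 2.05 and 2.28 TPM in PGCLC_d3ag3, against at most 0.374 TPM in the ESC and EpiLC libraries. The other members of the set, named after their values were seen, were Zfp964, Zfp787, Zfp846, Zfp12, Zfp763, Zfp9, Zfp90, Zfp74, Zfp1 and Zfp853. Of the 14, 7 kept the pattern under both rescalings.

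The developmental cofactors included members with low levels before PGCLC_d3. Of 7 listed, Zfp536 and Zfp703 were under the filter and all 5 others, Zfp423, Zfp521, Zfp503, Zfp335 and Zfp292, were called higher in PGCLC_d3 than in EpiLC, as 47.3% of all genes were. Zfp503 and Zfp521 reached 1 TPM only in the 4 PGCLC libraries, so they passed the filter through these groups and their direction was fixed by it. Zfp335 alone of these did not pass the test under quantile normalization, with a log2 difference of 0.18. Zfp423, like Zfp521 an EBF cofactor, had 3.72 and 3.85 TPM in ESC, 11.6 and 9.53 TPM in EpiLC, 25.2 and 24.9 TPM in PGCLC_d3 and 4.69 and 2.52 TPM in PGCLC_d3ag3. It rose by 1.18 in PGCLC_d3 against EpiLC (SE 0.20, limma adjusted p = 0.00041) and was lower in PGCLC_d3ag3 than in PGCLC_d3 by a log2 difference of -2.54 (SE 0.20, adjusted p = 3e-06). Zfp335 and Zfp292 changed less, by 0.53 and 0.68 at the step into PGCLC_d3 (adjusted p = 0.0015 and 0.0011). Zfp618, a partner of UHRF2 at 5-hydroxymethylcytosine, had 6.11 and 6.33 TPM in PGCLC_d3 and 0.291 and 0.497 TPM in PGCLC_d3ag3, against 1.11 and 1.18 TPM in EpiLC. Neither rescaling left Zfp423 or Zfp618 highest in PGCLC_d3 by the margin set.

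PGCLC_d3ag3 was highest for Zfp385c, Zfp667 and Zfp36l3. Zfp385c had 0.0182 and 0.0396 TPM in ESC, 1.66 and 1.57 TPM in EpiLC, 2.91 and 2.53 TPM in PGCLC_d3 and 11 and 11.7 TPM in PGCLC_d3ag3, with each state above the one before it. Its rise in PGCLC_d3 against EpiLC did not pass the test under quantile normalization, with a log2 difference of 0.24. Zfp667 had 2.43 and 2.87 TPM in ESC, 0.307 and 0.564 TPM in EpiLC, 2.66 and 3.48 TPM in PGCLC_d3 and 9.86 and 10.9 TPM in PGCLC_d3ag3. PGCLC_d3ag3 exceeded PGCLC_d3 by 1.73 for Zfp385c (SE 0.12, limma adjusted p = 1.6e-06) and 1.49 for Zfp667 (SE 0.15, adjusted p = 1.9e-05). Zfp267 rose as far as any member at this step, by 2.14 (SE 0.15, adjusted p = 1.4e-06), with 18.5 and 14 TPM in PGCLC_d3ag3, against 2.7 and 3.10 TPM in PGCLC_d3. The same gene had 15.3 and 15.2 TPM in ESC and 3.07 and 2.63 TPM in EpiLC, so that PGCLC_d3ag3 and ESC overlapped and stood apart from both states between them. The 8 gonadal somatic markers summed to more in PGCLC_d3ag3 than in PGCLC_d3 but to a like level in EpiLC, as given above, and their part in these rises was not tested.

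Members lowest in PGCLC_d3ag3 included Zfp64 and Zfp512b. Zfp64, an activator of the Mll gene in leukaemia, had 51.5 and 56.6 TPM in ESC, 26.2 and 24.4 TPM in EpiLC, 30.5 and 31.4 TPM in PGCLC_d3 and 8.08 and 6.92 TPM in PGCLC_d3ag3. Zfp512b had 9.13 and 11.2 TPM in ESC, 25.6 and 25.1 TPM in EpiLC, 9.48 and 11.8 TPM in PGCLC_d3 and 1.97 and 1.61 TPM in PGCLC_d3ag3, and was also highest in EpiLC. PGCLC_d3ag3 was below PGCLC_d3 by a log2 difference of -1.91 for Zfp64 (SE 0.10, limma adjusted p = 2.1e-07) and -2.05 for Zfp512b (SE 0.14, adjusted p = 1.4e-06). The annotation places Zfp64 next to Zfp93. Zfp445, a KRAB protein that maintains imprints, was looked at after its values were seen. It had 12.6 and 12.3 TPM in PGCLC_d3ag3, against 21.7 and 21.3 TPM in PGCLC_d3, a log2 difference of -0.74 (SE 0.09, adjusted p = 5.5e-05), and 22.3 to 25.4 TPM in the ESC and EpiLC libraries.

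The 4 CCCH members of the Zfp36 family each peaked in a different state. Their proteins bind AU-rich elements of messenger RNAs and recruit the CCR4-NOT deadenylase, which shortens the tail and starts decay. Zfp36l1 was highest in ESC, with 52.7 and 51.5 TPM there, 19.6 and 23.3 TPM in EpiLC, 25.5 and 23.8 TPM in PGCLC_d3 and 2.54 and 3.91 TPM in PGCLC_d3ag3. Zfp36l2 was highest in EpiLC, with 18.6 and 18.0 TPM in ESC, 312 and 284 TPM in EpiLC, 55.1 and 46.8 TPM in PGCLC_d3 and 20.5 and 20.8 TPM in PGCLC_d3ag3. Zfp36 had its highest level in PGCLC_d3, with 15.8 and 12.7 TPM in ESC, 35.8 and 32.5 TPM in EpiLC, 67.9 and 70.8 TPM in PGCLC_d3 and 30.1 and 41.1 TPM in PGCLC_d3ag3. EpiLC and PGCLC_d3ag3 overlapped for Zfp36, and its other groups did not. Zfp36l3, a rodent member expressed in mouse placenta, was highest in PGCLC_d3ag3, with 4.33 and 4.72 TPM there, 0.328 and 0.189 TPM in PGCLC_d3 and 0.0310 and 0.216 TPM in EpiLC, and was listed at 0 in both ESC libraries. Zfp36l3 reached 1 TPM only in the PGCLC_d3ag3 libraries, so it passed the filter through that group and its peak there was fixed by it.

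Tests of the family gave a change at each step. In EpiLC against ESC, Zfp36l2 rose by 3.95 (SE 0.09, limma adjusted p = 4.2e-10) and Zfp36 by 1.21 (SE 0.14, adjusted p = 4e-05), and Zfp36l1 was lower by a log2 difference of -1.25 (SE 0.15, adjusted p = 4.5e-05). In PGCLC_d3 against EpiLC, Zfp36l2 was lower by -2.53 (SE 0.09, adjusted p = 6e-09) and Zfp36 higher by 1.00 (SE 0.14, adjusted p = 0.00012). In PGCLC_d3ag3 against PGCLC_d3, Zfp36l1 was lower by -2.62 (SE 0.15, adjusted p = 4e-07), Zfp36l2 by -1.26 (SE 0.09, adjusted p = 1.3e-06) and Zfp36 by -0.96 (SE 0.14, adjusted p = 0.00021). Zfp36l3 stood higher by 2.13 (SE 0.13) at that step, a direction fixed by the filter, which it passed through PGCLC_d3ag3 alone.

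**Figure D5:**
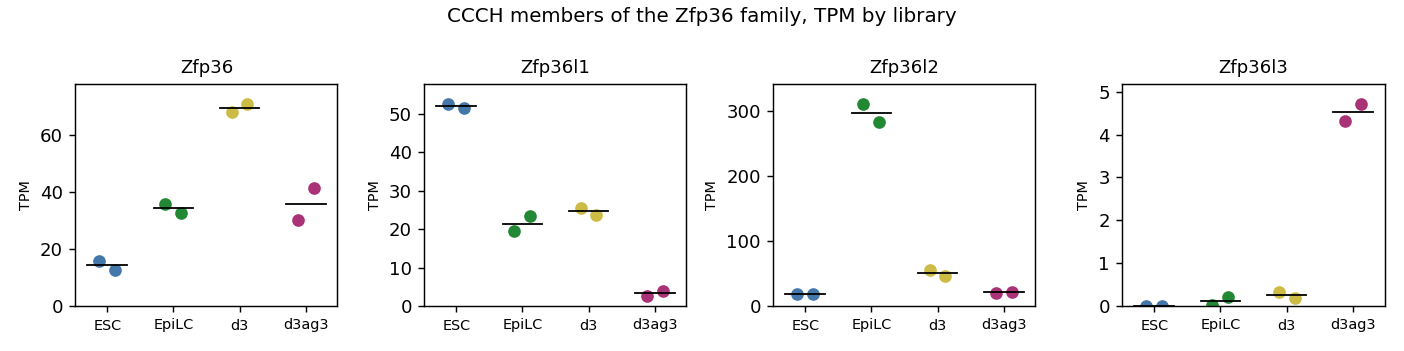
TPM of the 4 CCCH members in each library (points) with the group mean (line), each panel on its own axis from 0. Zfp36l1 is highest in ESC, Zfp36l2 in EpiLC, Zfp36 in PGCLC_d3 and Zfp36l3 in PGCLC_d3ag3, where it reaches 4.72 TPM.

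The deadenylase genes themselves were called in both directions at the last 2 steps. Of 15 listed CCR4-NOT subunits and adaptors, 5 were called higher in EpiLC than in ESC (35.4% of all genes were), and 10 did not pass the test. In PGCLC_d3 against EpiLC, 9 were higher and 4 lower (47.3% and 27.6% of all genes were), and in PGCLC_d3ag3 against PGCLC_d3, 3 were higher and 6 lower (25.7% and 44.8%). The adaptor gene Btg2 had 0.714 and 0.661 TPM in ESC, 7.52 and 8.47 TPM in EpiLC, 102 and 101 TPM in PGCLC_d3 and 48.4 and 51.8 TPM in PGCLC_d3ag3. It rose by 3.52 in PGCLC_d3 against EpiLC (SE 0.10, limma adjusted p = 1.5e-09). Cnot1, the scaffold, had 64.4 and 80.2 TPM in PGCLC_d3ag3, against 125 and 132 TPM in PGCLC_d3.

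Members linked to pluripotency were called in both directions at each step. Of 9 listed, 8 were members and Zfp961 has no row here. In EpiLC against ESC 3 rose and 3 fell (35.4% and 31.8% of all genes did), in PGCLC_d3 against EpiLC 4 rose and 1 fell (47.3% and 27.6%), and in PGCLC_d3ag3 against PGCLC_d3 3 rose and 1 fell (25.7% and 44.8%). Zfp281, which drives exit from the naive state in mouse stem cells, had 69.5 and 75.4 TPM in EpiLC, against 36.9 and 39.2 TPM in ESC, and 29.5 to 33.9 TPM in the PGCLC libraries. Zfp217 had 12.5 and 13.4 TPM in ESC and 3.15 to 6.68 TPM in the other libraries. Zfp462, which acts in heterochromatin, had 1.24 and 1.27 TPM in ESC, 8.70 and 8.33 TPM in EpiLC, 7.86 and 8.48 TPM in PGCLC_d3 and 3.09 and 3.03 TPM in PGCLC_d3ag3. Zfp706, another gene of naive state exit in mouse, had 237 and 259 TPM in PGCLC_d3ag3, against 179.6 and 182 TPM in PGCLC_d3, a log2 difference of 0.45 (SE 0.06, limma adjusted p = 0.00014).

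Other members with known roles followed their own courses. Zfp644, which recruits the G9a and GLP methyltransferases, was lowest in ESC, with 7.28 and 8.2 TPM there, 32.5 and 37.6 TPM in EpiLC, 44.8 and 44.4 TPM in PGCLC_d3 and 26.0 and 27.4 TPM in PGCLC_d3ag3. EpiLC exceeded ESC by 2.04 (limma adjusted p = 5.7e-08). Zfp286a was also lowest in ESC, with 1.73 and 2.17 TPM there, 13.2 and 13.6 TPM in EpiLC, 15.7 and 13.5 TPM in PGCLC_d3 and 5.13 and 6.40 TPM in PGCLC_d3ag3. Of 3 ribosome-linked members, Zfp593 and Zfp598 rose in PGCLC_d3 against EpiLC, by 0.90 and 0.47 (adjusted p = 1.2e-05 and 0.00027), and Zfp622 fell, by a log2 difference of -0.36 (adjusted p = 0.00062). Zfp593 and Zfp622 act in building the large ribosomal subunit, and Zfp598 senses collided ribosomes. Zfp326, a splicing-linked gene, showed the widest gap between libraries of a group, with 32.2 and 12.4 TPM in PGCLC_d3ag3, against 14.3 and 13.6 TPM in PGCLC_d3, so that the step did not pass the test (adjusted p = 0.18).

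A few members hardly moved. Zfp207, the spindle protein BuGZ, had 243 and 234 TPM in ESC, 227 and 240.4 TPM in EpiLC, 264 TPM in both PGCLC_d3 libraries and 257 and 270.0 TPM in PGCLC_d3ag3. PGCLC_d3 was called above EpiLC by 0.18 (SE 0.05, limma adjusted p = 0.012), and the difference was -0.09 under median-of-ratios rescaling. Its group means spanned 0.18 on the log2 scale, the narrowest range among members with at least 10 TPM in every library. Zfp451, a SUMO ligase, Zfp35, Zfp574 and Zfp143 followed, with ranges of 0.27 to 0.35.

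The silencing machinery through which KRAB members act moved mostly one way at each of the first 2 steps. Of 26 listed genes, 18 rose and 3 fell in EpiLC against ESC (35.4% and 31.8% of all genes did), with a median log2 difference of 0.51. In PGCLC_d3 against EpiLC 3 rose and 17 fell (47.3% and 27.6% of all genes), with a median of -0.40, and in PGCLC_d3ag3 against PGCLC_d3 13 rose and 7 fell (25.7% and 44.8%), with a median of 0.18. Trim28, the corepressor that KRAB domains bind, had 2093 and 2063 TPM in ESC, 1162 and 1158 TPM in EpiLC, 562 and 560.4 TPM in PGCLC_d3 and 487 and 559 TPM in PGCLC_d3ag3. EpiLC was lower than ESC by a log2 difference of -0.84 and PGCLC_d3 lower than EpiLC by -1.05 (limma adjusted p = 1.5e-06 and 2.4e-07). Setdb1 had 75.8 TPM in both EpiLC libraries, against 35.8 and 39.5 TPM in ESC, and 41.3 and 44.9 TPM in PGCLC_d3ag3, against 79.2 and 75.1 TPM in PGCLC_d3. The HUSH complex genes Pphln1 and Mphosph8 peaked in different states, Pphln1 in EpiLC at 138 and 146 TPM and Mphosph8 in PGCLC_d3ag3 at 289.8 and 302 TPM. Dnmt1, the maintenance DNA methyltransferase, had 43.1 and 44.5 TPM in PGCLC_d3, against 148 and 142 TPM in EpiLC.

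Some members lie side by side in the genome. In the RefSeq gene order, 242 of 245 members could be placed and 72 (29.8%) lay next to another member, in 30 runs. The longest run held 5 members, Zfp560, Zfp26, Zfp426, Zfp266 and Zfp846. Within it Zfp266 was highest in EpiLC and its neighbour Zfp846 high in both PGCLC groups, and the other members of the run had no pattern. Of the 57 members with a pattern that could be placed, 21 lay next to a member and 6 next to another member with a pattern.

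Other zinc finger classes were called at the following rates. Of 39 Zbtb genes, whose proteins carry a BTB domain, 59% were called either way in EpiLC against ESC, and of 18 Zscan and Zkscan genes, whose proteins carry a SCAN domain, 61.1% were. The shares were 63.3% of members and 67.3% of all genes. In PGCLC_d3ag3 against PGCLC_d3 the shares were 60.4% of members, 74.4% of Zbtb genes, 88.9% of Zscan and Zkscan genes and 70.4% of all genes. These shares are descriptions, and the differences between classes were not tested.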

How the data were processed

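RNA of 8 rat libraries in 4 groups was sequenced from SMART-Seq v4 and KAPA Hyper Prep libraries, per the labels' protocols. Per the submitters' processing notes, the tools were bcl2fastq 2.20, cutadapt 1.1.6, HISAT2 2.1.0 and featureCounts from Subread 1.6.5, on the build rn7. The authors deposited 1 table of log2(TPM + 1) values per gene. TPM keeps no read totals, so depth is unknown and no counting interval is given. The counting of reads shared by near-identical genes, such as Zfp709 and Zfp709l1 or Zfp707 and Zfp707l1, is not given in the sources used here, so such rows are uncertain.

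Here 11066 rows with no gene name were dropped, and genes at 1 TPM or more in at least 2 libraries went into a fit by limma 3.58.1, run in R 4.3.3 with a mean-variance trend and 2-sided tests, with 4 residual degrees of freedom and Benjamini-Hochberg adjustment over 13571 genes. The procedure was tested on simulated data in which few genes changed, and in EpiLC alone. That test does not speak to the scaling of the libraries. Members and gene lists were chosen with earlier results of these data known. Named members were, by rule, up to 5 highest and 3 lowest in a group and the 3 largest rises and falls at each step. The 5 steadiest, the members of role lists and the 3 with the highest mean were named as well. Others are said to be named after their values were seen. A mean of at least 5 TPM was needed for the first kinds, in the higher group or, for the lowest members, in each other group. Rises and falls also needed groups that did not overlap, so for these that trait was selected. The steadiest had at least 10 TPM in every library. The shared replicate numbers did not pair the libraries: correlations of deviations ran between -0.0374 and 0.0662. Alternatives were a log2 pseudocount of 0.1, other filters, median-of-ratios rescaling, quantile normalization, a replicate block and leaving out each library. Promoter windows and gene order are from RefSeq on GRCr8.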

Additional observations from a re-analysis of the deposited data

How the results depend on the processing

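Of 125 called differences of 55 named members, 99 kept direction and call in each of the 15 alternatives that gave them a value (118 had one under the filter of at least 5 TPM) and 26 lost the call in at least 1, of which 15 did so under a rescaling. The values that turned round were 3, each for PGCLC_d3 against EpiLC: Zfp64 to -0.0163 under quantile normalization, and Zfp207 to -0.0894 and Zfp706 to -0.0634 under median-of-ratios rescaling. The cause was not tested.

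At that step quantile normalization gave 76 members higher and 90 lower, and for PGCLC_d3ag3 against PGCLC_d3 median-of-ratios rescaling gave 68 higher and quantile normalization 91. Median-of-ratios rescaling left 1 CCR4-NOT gene lower in EpiLC against ESC, 1 silencing gene and 5 CCR4-NOT genes higher in PGCLC_d3 against EpiLC, and 5 higher and 3 lower CCR4-NOT genes in PGCLC_d3ag3 against PGCLC_d3, as did quantile normalization (5 and 3). Members highest in PGCLC_d3 numbered 2 under either rescaling, and under quantile normalization 3 were high in EpiLC and PGCLC_d3 and 7 in both PGCLC groups. A pseudocount of 0.1, which widens differences of low genes by construction, gave 19 members lowest in ESC, 10 highest in PGCLC_d3, 21 lowest in PGCLC_d3ag3, 2 high in ESC and PGCLC_d3 and 24 high in both PGCLC groups. The shares of all genes with these patterns were not counted under these alternatives, so the counts describe the settings only.

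Leaving out 1 library gave 25 to 42 members higher in PGCLC_d3ag3 against PGCLC_d3 (25 without either PGCLC_d3 library), 0 to 1 CCR4-NOT genes lower in EpiLC against ESC (1 without either PGCLC_d3ag3 library), 3 to 6 lower in PGCLC_d3ag3 against PGCLC_d3 (3 without PGCLC_d3 replicate 1) and 2 to 4 members high in ESC and EpiLC (2 without PGCLC_d3 replicate 2). A group with 1 library left was assumed to vary like the others. The shares of all genes were not counted for these fits.

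With a replicate block the counts of members higher and lower were 93 and 59, 118 and 51, and 40 and 111 at the 3 steps. The shares of all genes were 35.6% and 32%, 47.6% and 27.6%, and 25.7% and 45%. The replicate numbers share only a number, and the block moved no count of calls by over 1.5 times.

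With 2 libraries a group, small differences are resolved only where the spread is low, and the median gap between libraries of a group was 0.081 to 0.157 on the log2 scale for members. The patterns of pairs of groups were chosen after seeing the data.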
